A study of Mus musculus with 6 samples.

Results

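Mitochondrial ribosomal protein genes were examined in RNA labelled as that of mice lacking the circadian repressor Rev-erbα, encoded by Nr1d1. The members were all genes on the array whose platform symbol begins with Mrpl or Mrps followed by a number. This gave 76 genes, 48 Mrpl and 28 Mrps, read by 132 probes, of 19057 named genes on the array. Each gene was read at its brightest probe by the mean of the 6 arrays. The arrays were Illumina mouse whole genome bead arrays, 3 of RNA labelled Rev-erba KO (Rev-/-) and 3 of RNA labelled Rev-erba WT (WT). Both groups were labelled as primary myoblasts of male C57BL/6 mice aged 6 weeks, grown on collagen in F-10 medium with 20% FBS and bFGF at 5 ng/ml. The Rev-/- mice were described as lacking the gene in every tissue, so a difference may precede culture, and the controls were described as littermates. The labels call the samples of a group independent but do not say whether each came from its own animal, so p-values measure the spread between these arrays, which may be technical.

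Mitochondrial ribosomes translate the few respiratory chain subunits that mitochondrial DNA encodes. Their RNA comes from mitochondrial DNA, but all of their proteins are encoded in the nucleus, made in the cytosol and imported, so nuclear gene expression sets their supply. The large subunit (Mrpl) forms peptide bonds and the small subunit (Mrps) binds and decodes the messenger RNA, and each holds proteins inherited from the bacterial ancestor beside proteins found only in mitochondria. Rev-erbα represses transcription from sites of the Rev-erb and ROR type, and it has been linked to mitochondrial content in muscle.

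The promoter windows below are shown because they carry the motifs under which this family is usually discussed. The windows came from RefSeq (GRCm38.p6) and run from 250 bases before to 50 bases after the start of the gene. At least 1 window was found for 67 of the 76 members, 73 windows in all. A total of 4 motifs were searched on both strands, GCATGCGC for nuclear respiratory factor 1, CCGGAAG for GABP and other ETS factors, AAGATGGC for YY1, and TAGGTCA for Rev-erb and ROR. Only these exact letters were searched, and other forms of the same sites were not. The motifs share no bases in the windows shown. Mrpl3 (chr9:105053018-105053317, plus strand) is shown as the member whose Rev-/- values lay highest above WT, Mrpl22 (chr11:58171414-58171713, plus strand) and Mrps18b (chr17:35916391-35916690, minus strand) as 1 member of each subunit with both respiratory-factor and ETS motifs, and Mrpl53 (chr6:83108858-83109157, plus strand) as the 1 member with the Rev-erb motif. Mrps11 (chr7:78782881-78783180, plus strand) is shown because its window shares 141 bases (chr7:78783040-78783180) with that of Mrpl46 on the minus strand, a small and a large subunit gene that start back to back. Capitals mark the motifs on either strand.
Mrpl3: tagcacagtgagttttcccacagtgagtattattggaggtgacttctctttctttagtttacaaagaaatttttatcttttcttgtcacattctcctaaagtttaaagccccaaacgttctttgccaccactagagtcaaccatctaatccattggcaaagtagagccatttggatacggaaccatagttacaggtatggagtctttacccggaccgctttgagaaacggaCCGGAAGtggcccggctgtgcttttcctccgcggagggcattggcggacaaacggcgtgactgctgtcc
Mrpl22: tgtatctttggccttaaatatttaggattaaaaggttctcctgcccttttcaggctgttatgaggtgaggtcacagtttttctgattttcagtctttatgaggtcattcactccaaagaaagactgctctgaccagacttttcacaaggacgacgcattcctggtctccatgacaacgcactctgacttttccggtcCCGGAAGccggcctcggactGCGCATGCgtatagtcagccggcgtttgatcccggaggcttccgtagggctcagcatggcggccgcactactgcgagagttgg
Mrps18b: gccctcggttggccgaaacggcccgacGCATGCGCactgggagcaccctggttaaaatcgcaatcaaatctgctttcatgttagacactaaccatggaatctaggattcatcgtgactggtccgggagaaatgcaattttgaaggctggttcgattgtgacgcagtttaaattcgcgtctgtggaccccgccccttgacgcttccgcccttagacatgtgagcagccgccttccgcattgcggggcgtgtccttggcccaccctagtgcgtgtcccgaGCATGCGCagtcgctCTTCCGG
Mrpl53: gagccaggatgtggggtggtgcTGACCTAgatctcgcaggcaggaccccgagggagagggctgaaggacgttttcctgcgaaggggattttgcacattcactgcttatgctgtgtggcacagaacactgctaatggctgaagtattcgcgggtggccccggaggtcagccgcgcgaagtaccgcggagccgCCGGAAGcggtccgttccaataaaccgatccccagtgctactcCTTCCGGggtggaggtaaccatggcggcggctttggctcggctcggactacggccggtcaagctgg
Mrps11: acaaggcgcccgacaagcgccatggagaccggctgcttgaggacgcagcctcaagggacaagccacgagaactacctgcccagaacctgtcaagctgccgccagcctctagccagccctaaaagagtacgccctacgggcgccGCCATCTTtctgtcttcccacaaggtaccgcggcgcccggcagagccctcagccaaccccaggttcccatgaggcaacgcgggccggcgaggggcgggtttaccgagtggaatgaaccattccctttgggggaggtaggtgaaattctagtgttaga

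The ETS motif lay in a window of 26 of the 67 members (38.8%), against 18.5% of the 9365 genes tested that had a window and 9.93% of all 27025 genes with one. The respiratory factor motif lay in 8 members (11.9%), against 5.55% and 3.05%, and the YY1 motif in 12 (17.9%), against 4.88% and 3.19%. The Rev-erb motif, in the 1 form searched, was found in Mrpl53 alone (1.49%), against 2.30% and 2.97%, with its first base 228 bases before the start. Of the 73 windows, 35 held none of these letters. A match is a description of the sequence, and these windows do not cover distal sites. Mrpl53 itself had log2 intensities of 11.32, 11.42 and 11.45 on the Rev-/- arrays, against 11.42, 11.58 and 11.49 on the WT arrays, so its groups overlapped.

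The whole arrays are described first where they bear on the members. Between 20713 and 21900 probes were above background per array. The targeted gene did not follow the labels, since Nr1d1 had log2 intensities of 7.01, 6.51 and 7.14 in Rev-/- RNA, against 6.59, 6.54 and 7.22 in WT RNA, with 3 of the 6 values above background. Nothing used here says whether the deletion covers its probe. Of 8 myoblast markers listed, Pax7 and Myf5 were above background on 0 arrays, and the others, Myod1, Myog, Cdh15, Itga7, Megf10 and Vcam1, on all 6. Myod1 was read at 7.84 to 7.91 in Rev-/- RNA, against 7.95 to 8.08 in WT RNA, and Cdh15 at 9.12 to 9.76 in Rev-/- RNA, against 9.38 to 9.66 in WT RNA. Genes of mature muscle were bright, with Ckm at 13.88 to 14.13 in Rev-/- RNA, against 14.07 to 14.11 in WT RNA, and the haemoglobin gene Hba-a1 was at 14.43 to 14.54 in Rev-/- RNA, against 14.22 to 14.60 in WT RNA. All fibroblast (8), endothelial (8) and macrophage (7) markers listed and on the array were above background on all 6 arrays. Markers of the labelled cell type were thus present in part, beside genes of mature muscle, blood and these other cell types. The samples are called Rev-/- and WT RNA hereafter. In bulk RNA, fewer cells of a type and less RNA per cell cannot be told apart.

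Array Rev-/- 1 differed most from the others, its correlation with them averaging 0.983, where each other array averaged 0.991 to 0.992. The neutrophil gene S100a8 had log2 intensities of 13.06, 7.96 and 10.24 in Rev-/- RNA, against 7.52, 10.72 and 9.68 in WT RNA. The bone collagenase Mmp13 had 12.47, 6.86 and 7.21 in Rev-/- RNA, against 6.91, 7.05 and 7.70 in WT RNA. All 9 kept neutrophil genes (of 12 listed) and all 8 kept bone and cartilage genes (of 11 listed) were highest on Rev-/- 1. Their summed linear intensities were 1138 to 20449 and 1159 to 21126 in Rev-/- RNA, against 1066 to 3493 and 1662 to 3353 in WT RNA. Red cell genes moved with it in part. Slc4a1, the anion exchanger of red cells, had 13.21, 9.08 and 9.68 in Rev-/- RNA, against 8.72, 11.18 and 9.14 in WT RNA. Of 6 kept red cell genes (of 6 listed), 4 were highest on Rev-/- 1, and their summed linear intensities were 23951 to 34517 in Rev-/- RNA, against 20552 to 26302 in WT RNA.

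No mitochondrial ribosomal protein gene passed the test between Rev-/- and WT RNA. Of the 76 members, 72 were above background, each on all 6 arrays, 45 of the large and 27 of the small subunit. Mrpl19, Mrpl32, Mrpl45 and Mrps14 were not kept, since too few of their values rose above background. By limma, with Benjamini-Hochberg adjustment over all kept probes with 1 gene symbol, 0 of 72 members reached an adjusted p of at most 0.05 with a fold of at least 1.5, and the smallest adjusted p was 0.997. Over all 11624 genes tested, 0 were called (0%). At an unadjusted p of at most 0.05, 1 member, Mrpl3, was higher in Rev-/- RNA (1.24% of all genes tested were) and 2, Mrps15 and Mrps2, were lower (1.94% of all genes tested were).

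The differences were small beside their errors. Log2 fold changes (Rev-/- over WT) ran from -0.29 to 0.17 over the 72 members, and 70 of them lay within 0.2 of 0. The standard errors ran from 0.061 to 0.175, with a median of 0.097. No member reached 1.5-fold in either direction, against 0.318% of all genes tested. In 20 members the Rev-/- mean was the higher, and in 52 (72.2%) the lower, against 52.2% of all genes tested with a log2 fold change below 0, though all 72 were lower with array medians aligned (80.8% of all genes tested were) or with no normalization (90.9% were).

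**Figure D1:**
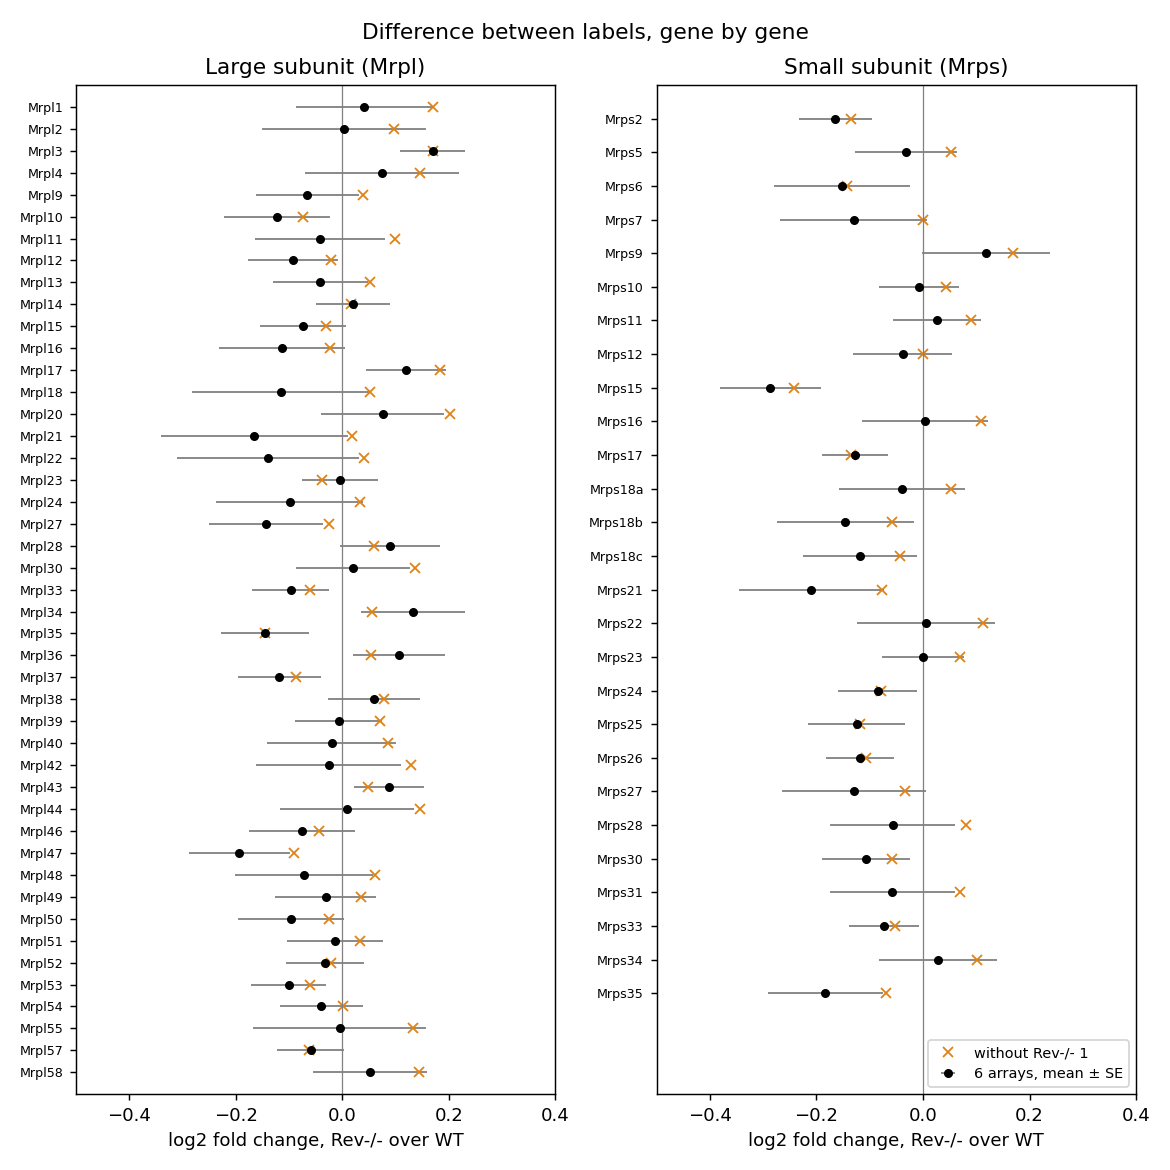
Log2 fold change (Rev-/- over WT, horizontal axis) of each of the 72 kept members, large subunit on the left and small subunit on the right. Black points with bars are the fit to 6 arrays with its standard error, and orange crosses are the value without array Rev-/- 1. Most black points lie below 0 and within 0.2 of it, and most crosses lie to the right of them.

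The family as a whole was lowest on array Rev-/- 1. To summarise the family on each array, each gene's log2 intensity was set against its own mean over the 6 arrays, and the median of these deviations over the genes was taken as the score of the array. The members' score was -0.16, 0.090 and 0.011 on the Rev-/- arrays, against 0.029, 0.057 and -0.036 on the WT arrays. The scores of Rev-/- 2 and Rev-/- 3 thus lay among or above those of WT, and Rev-/- 1 lay alone below them. Rev-/- 1 was the lowest of the 6 arrays for 49 of the 72 members (68.1%), against 25.1% of all genes tested. It was the highest array for 5 members (6.94%), against 21.9% of all genes tested, and these were Mrpl23, Mrpl28, Mrpl34, Mrpl36 and Mrpl43. In 65 members the value on Rev-/- 1 was below the gene's own mean, and the deviations there ran from -0.45 to 0.22. The neutrophil, bone and red cell genes that were highest on the same array were given above, and their part in these values was not tested.

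**Figure D2:**
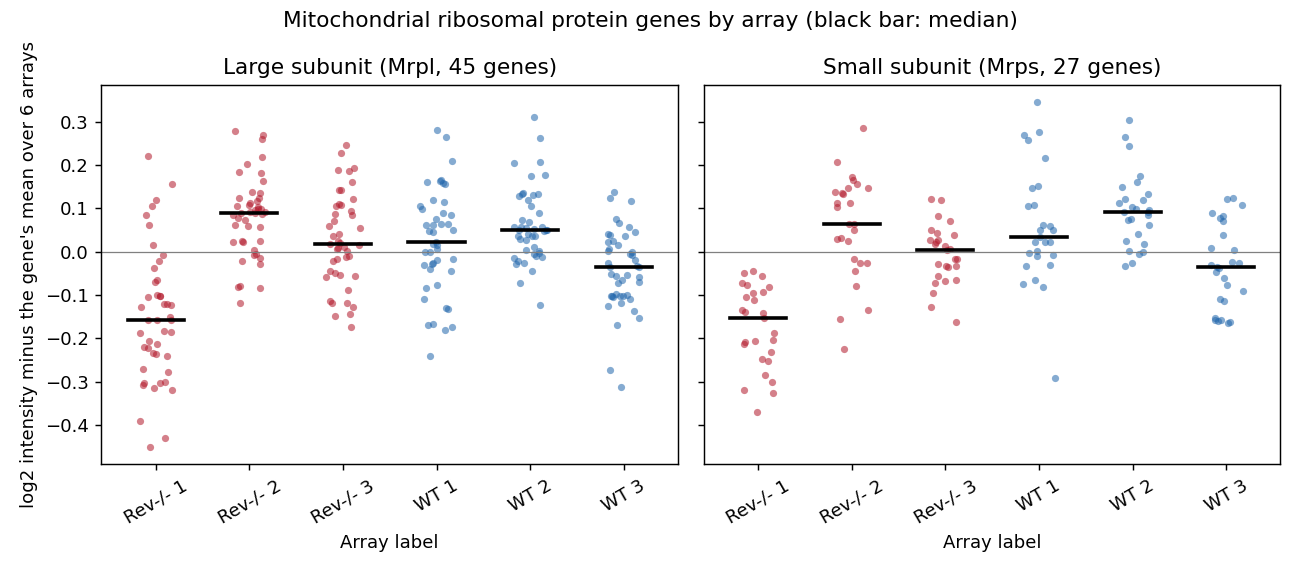
Log2 intensity minus the gene's mean over 6 arrays (vertical axis) for each array, with 45 large subunit genes on the left and 27 small subunit genes on the right. Each point is a gene and the black bar is the median, and the median for Rev-/- 1 lies at -0.16 and -0.15, below every other array.

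Members spread more widely over the Rev-/- arrays than over the WT arrays. The median standard deviation of a member was 0.147 over the 3 Rev-/- arrays and 0.104 over the 3 WT arrays. These medians were not taken over all genes tested, so whether the wider spread is particular to the members was not tested. It was 0.081 for Rev-/- 2 and Rev-/- 3 alone, but a standard deviation of 2 values is not comparable with that of 3. From the lowest to the highest array a member spanned a median of 0.365 on the log2 scale, against 0.287 over all genes tested. The 2 sets are not alike, since all 72 members but only 9881 of the 11624 genes tested were above background on all 6 arrays. The median log2 fold change of the members was -0.049, against -0.0050 over all genes tested. Without Rev-/- 1, refitted after normalization of the other 5 arrays, it was 0.035, and in the means of the normalized values 42 members were then higher in Rev-/- RNA and 30 lower, where 52.1% of all genes tested were lower in the refit. In all, 22 members, 15 large and 7 small, changed sign.

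Both subunits had their lowest score on Rev-/- 1. The large subunit score was -0.16, 0.090 and 0.018 on the Rev-/- arrays, against 0.022, 0.051 and -0.036 on the WT arrays. The small subunit score was -0.15, 0.064 and 0.0029 on the Rev-/- arrays, against 0.034, 0.093 and -0.035 on the WT arrays. The large score minus the small score was -0.0054, 0.026 and 0.015 on the Rev-/- arrays, against -0.012, -0.042 and -0.0011 on the WT arrays, and the groups overlapped. All 27 small subunit genes and 38 of 45 large subunit genes were below their own mean on Rev-/- 1, which was the lowest array for 20 (74.1%) and 29 (64.4%) of them. By label, 30 large subunit genes were lower in Rev-/- RNA and 15 higher, with a median log2 fold change of -0.032. Of the small subunit genes, 22 were lower (81.5%) and 5 higher, with a median of -0.085. Without Rev-/- 1 the medians were 0.042 for the large and -0.034 for the small subunit, so only the sign of the large subunit turned. In that refit 15 of 45 large and 15 of 27 small subunit genes were lower, against 52.1% of all genes tested. Whether the subunits differ was not tested.

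Members were also divided into those of bacterial type and those found only in mitochondria. Mrps30 and Mrps18a were counted here with the large subunit, where their proteins lie in the assembled ribosome. The median log2 fold change was -0.042 over 27 bacterial-type large subunit genes and -0.032 over 20 mitochondria-specific ones. It was -0.085 over 15 bacterial-type small subunit genes and -0.096 over 10 mitochondria-specific ones. Without Rev-/- 1 these medians were 0.041 and 0.043 for the large subunit, and -0.0003 and -0.044 for the small subunit. The scores on Rev-/- 1 were -0.19, -0.15, -0.14 and -0.18 in the same order. The members with an ETS motif had a median log2 fold change of -0.065 (26 genes) and those with a window but without the motif had -0.050 (38 genes), and Rev-/- 1 was the lowest array for 69.2% and 68.4% of them.

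A total of 5 members had 3 Rev-/- values all on one side of the 3 WT values, 1 higher and 4 lower, against 3.54% and 4.57% of all genes tested. For each, the exact two-sided permutation test of 3 against 3 arrays gave p = 0.1, the smallest it allows.

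Mrpl3, a bacterial-type protein of the large subunit, had log2 intensities of 10.05, 10.08 and 10.02 in Rev-/- RNA, against 9.83, 9.95 and 9.87 in WT RNA. Every Rev-/- value lay above every WT value, Rev-/- 1 included, which sets it apart from most members. The log2 fold change was 0.17 (SE 0.061, limma adjusted p = 0.997), and it was 0.17 without Rev-/- 1, but -0.075 with array medians aligned and -0.12 with no normalization. A second kept probe of Mrpl3 gave 8.87, 9.21 and 9.19 in Rev-/- RNA, against 8.93, 9.17 and 9.14 in WT RNA. That probe had a log2 fold change of 0.01, so the 2 probes disagreed.

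Mrps15, whose bacterial counterpart binds the RNA of the small subunit, had the most negative difference of all members. Its log2 intensities were 7.75, 7.76 and 8.01 in Rev-/- RNA, against 8.24, 8.12 and 8.02 in WT RNA. The groups were separated by a narrow gap, with Rev-/- 3 next to WT 3. The log2 fold change was -0.29 (SE 0.095, limma adjusted p = 0.997), and it was -0.24 without Rev-/- 1. A second kept probe had 6.74, 6.80 and 6.95 in Rev-/- RNA, against 6.85, 6.75 and 6.89 in WT RNA, with a log2 fold change of 0.00. These values lie near the background limits of the arrays (6.65 to 6.77 in the deposited values). A difference may not be visible there, so this probe does not bear on the brighter one.

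Mrps2, another bacterial-type small subunit protein, had log2 intensities of 7.32, 7.32 and 7.49 in Rev-/- RNA, against 7.52, 7.56 and 7.55 in WT RNA. The 3 WT values lay close together and Rev-/- 3 lay just below them. The log2 fold change was -0.16 (SE 0.068, limma adjusted p = 0.997), and it was -0.14 without Rev-/- 1. Mrps17 had 11.03, 11.06 and 10.95 in Rev-/- RNA, against 11.10, 11.14 and 11.18 in WT RNA. Here Rev-/- 3, not Rev-/- 1, was the lowest array. The log2 fold change was -0.13 (SE 0.062), and it was -0.14 without Rev-/- 1.

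Mrpl47, a bacterial-type protein of the large subunit, had log2 intensities of 9.10, 9.39 and 9.43 in Rev-/- RNA, against 9.47, 9.49 and 9.54 in WT RNA. Rev-/- 1 lay well below the other arrays, while Rev-/- 2 and Rev-/- 3 lay just under WT. The log2 fold change was -0.19 (SE 0.095), and it was -0.091 without Rev-/- 1. Its second kept probe had a log2 fold change of 0.06.

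**Figure D3:**
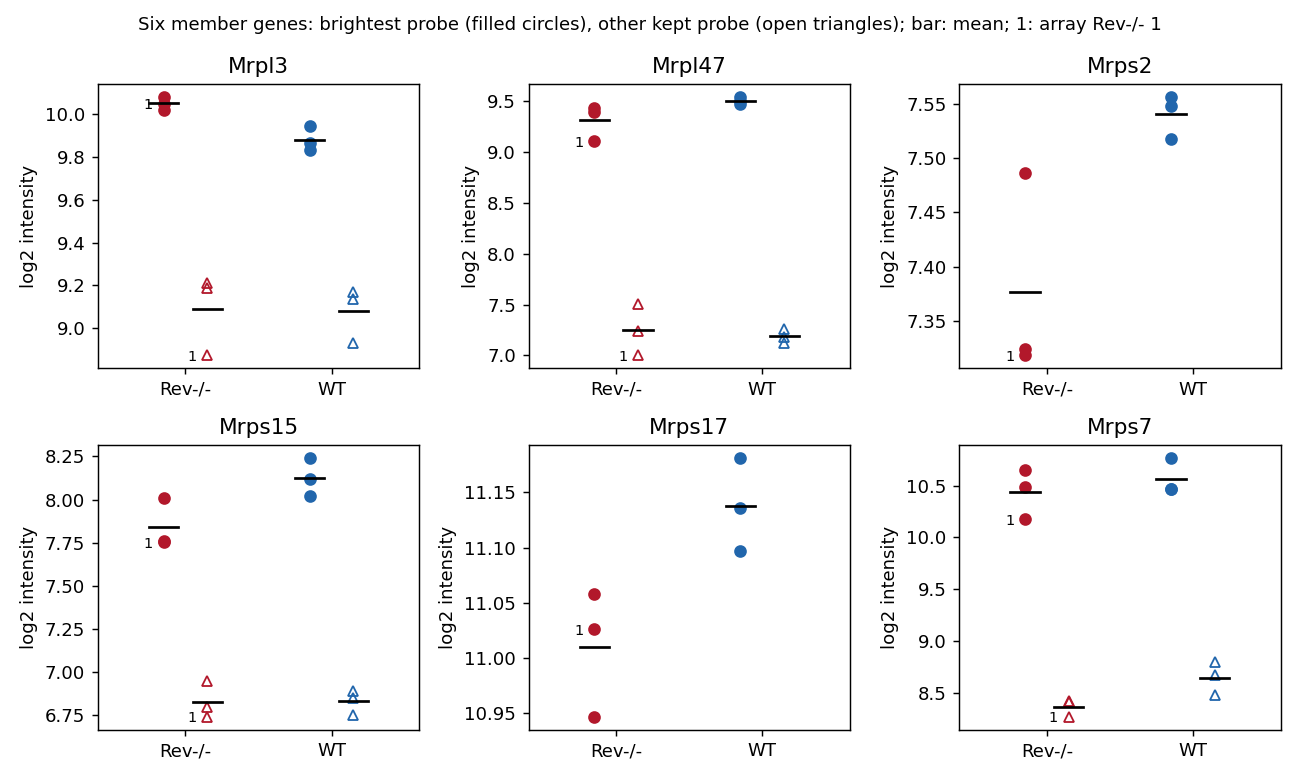
Log2 intensity (vertical axis, each panel on its own range) of 6 members on the Rev-/- arrays, left, and the WT arrays, right. Filled circles are the brightest probe, open triangles another kept probe, bars the mean, and the numeral 1 marks array Rev-/- 1. The filled circles of Mrpl3, Mrpl47, Mrps2, Mrps15 and Mrps17 do not overlap between labels, and the triangles of Mrpl3, Mrpl47 and Mrps15 do. The triangles of Mrps15 lie near background. These are quantile-normalized values, and the difference of Mrpl3 was negative with array medians aligned or with no normalization.

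The other probes of the members allow a further look at this. Of the 72 members, 26 had more than 1 kept probe, which gave 39 further probes. Of these, 29 (74.4%) had a log2 fold change of the same sign as the brightest probe of the gene. With 72.2% of members lower, part of this agreement would arise without agreement gene by gene. On Rev-/- 1, 34 of the 39 were below their own mean and 27 were lowest there. Shares over the further probes of all genes were not taken. Mrps7, a protein of the small subunit head, is a case where the probes differ in size. Its brightest probe had 10.18, 10.65 and 10.48 in Rev-/- RNA, against 10.47, 10.77 and 10.46 in WT RNA, with a log2 fold change of -0.13 (SE 0.138) that was 0.0001 without Rev-/- 1. Its second kept probe had 8.27, 8.41 and 8.42 in Rev-/- RNA, against 8.67, 8.79 and 8.47 in WT RNA. The second probe did not overlap between labels, with a log2 fold change of -0.28, and it was singled out after its values were seen. A further probe of Mrpl51, near background, did not overlap in the other direction. It had 6.88, 6.79 and 7.07 in Rev-/- RNA, against 6.79, 6.72 and 6.77 in WT RNA. Its log2 fold change was 0.15, where the brightest probe of Mrpl51 had -0.013. The share of all further probes without overlap was not taken.

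Other large subunit members named for their roles, Mrpl10, Mrpl11, Mrpl12 and Mrpl44, overlapped between labels. Mrpl10 and Mrpl12 belong to the stalk that binds translation factors. Mrpl12 had log2 intensities of 10.90, 11.19 and 11.02 in Rev-/- RNA, against 11.17, 11.13 and 11.08 in WT RNA. Mrpl10 had 10.01, 10.26 and 10.05 in Rev-/- RNA, against 10.33, 10.29 and 10.07 in WT RNA. Both were lowest on Rev-/- 1, and their log2 fold changes were -0.092 (SE 0.085) for Mrpl12 and -0.12 (SE 0.099) for Mrpl10, or -0.022 and -0.074 without that array. A second kept probe of Mrpl10 had a log2 fold change of 0.037. Mrpl11, at the base of the stalk, had 9.06, 9.47 and 9.51 in Rev-/- RNA, against 9.45, 9.40 and 9.32 in WT RNA. Its log2 fold change was -0.042 (SE 0.122), and it was 0.099 without Rev-/- 1. Mrpl44, which has a ribonuclease III-like fold, had 9.16, 9.52 and 9.62 in Rev-/- RNA, against 9.49, 9.48 and 9.30 in WT RNA. Its log2 fold change was 0.0087 (SE 0.126), and it was 0.15 without Rev-/- 1.

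The large subunit gene farthest below its other arrays on Rev-/- 1 was Mrpl21, a bacterial-type protein. Its log2 intensities were 9.86, 10.57 and 10.25 in Rev-/- RNA, against 10.57, 10.31 and 10.29 in WT RNA. Rev-/- 1 was lowest and Rev-/- 2 was level with the brightest WT array. The log2 fold change was -0.17 (SE 0.175), and it was 0.019 without Rev-/- 1. Mrpl22, which lines the exit tunnel for the growing peptide and whose promoter is shown above, had 8.98, 9.63 and 9.41 in Rev-/- RNA, against 9.69, 9.41 and 9.34 in WT RNA. Its log2 fold change was -0.14 (SE 0.171), and it was 0.041 without Rev-/- 1. Mrpl35 had 7.17, 7.24 and 7.09 in Rev-/- RNA, against 7.28, 7.44 and 7.20 in WT RNA, with a log2 fold change of -0.14 (SE 0.082) that was the same without Rev-/- 1.

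On the other side, Mrpl17 and Mrpl34 followed Mrpl3 among the large subunit genes with higher Rev-/- means, and both turned negative with array medians aligned (-0.15 for Mrpl17 and -0.080 for Mrpl34) or with no normalization (-0.20 and -0.13). Mrpl17 had log2 intensities of 11.06, 11.26 and 11.23 in Rev-/- RNA, against 11.01, 11.11 and 11.06 in WT RNA. The groups overlapped, and the log2 fold change was 0.12 (SE 0.074), or 0.18 without Rev-/- 1. Mrpl34 had 9.27, 8.97 and 9.11 in Rev-/- RNA, against 8.97, 9.11 and 8.88 in WT RNA. It was highest on Rev-/- 1, and its log2 fold change of 0.13 (SE 0.097) was 0.056 without that array.

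In the small subunit, the decoding protein Mrps12 had log2 intensities of 10.49, 10.62 and 10.59 in Rev-/- RNA, against 10.73, 10.66 and 10.42 in WT RNA. The groups overlapped, with a log2 fold change of -0.038 (SE 0.093), or -0.0003 without Rev-/- 1. The 3 paralogs of a bacterial small subunit protein all had their lowest value on Rev-/- 1. Mrps18b had 9.16, 9.48 and 9.38 in Rev-/- RNA, against 9.69, 9.52 and 9.25 in WT RNA (log2 fold change -0.15, SE 0.129). Mrps18c had 9.45, 9.72 and 9.62 in Rev-/- RNA, against 9.58, 9.90 and 9.66 in WT RNA (log2 fold change -0.12, SE 0.107). Mrps18a had 9.46, 9.84 and 9.64 in Rev-/- RNA, against 9.73, 9.82 and 9.51 in WT RNA (log2 fold change -0.039, SE 0.118). Without Rev-/- 1 the log2 fold changes were -0.058 for Mrps18b, -0.043 for Mrps18c and 0.053 for Mrps18a. All 3 overlapped between labels, and whether their probes tell these paralogs apart was not tested.

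Other small subunit genes were less negative, or positive, without Rev-/- 1. Mrps21, a bacterial-type protein, had 9.70, 10.18 and 10.01 in Rev-/- RNA, against 10.33, 10.16 and 10.02 in WT RNA, and its log2 fold change of -0.21 (SE 0.136) was -0.077 without that array. Mrps35 had 8.68, 9.11 and 8.93 in Rev-/- RNA, against 9.11, 9.08 and 9.08 in WT RNA, and its log2 fold change of -0.18 (SE 0.108) was -0.069 without it. Mrps28 had 9.77, 10.22 and 10.14 in Rev-/- RNA, against 10.06, 10.09 and 10.14 in WT RNA, and its log2 fold change of -0.057 (SE 0.117) was 0.080 without it. The groups overlapped in all 3 genes. Mrps26, found only in mitochondria, was nearly as low on Rev-/- 2 as on Rev-/- 1. It had 9.73, 9.73 and 9.80 in Rev-/- RNA, against 9.92, 9.91 and 9.79 in WT RNA, and its log2 fold change was -0.12 (SE 0.064), or -0.11 without Rev-/- 1.

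Of the small subunit genes with higher Rev-/- means, Mrps9 had the largest difference, a log2 fold change of 0.12 (SE 0.120) that was -0.13 with array medians aligned and -0.18 with no normalization. Its log2 intensities were 10.06, 10.25 and 10.19 in Rev-/- RNA, against 9.82, 10.28 and 10.05 in WT RNA, and WT 1 was the lowest array. For Mrps9 the log2 fold change was 0.0017 without WT 1 and 0.17 without Rev-/- 1. Mrps34 had 11.68, 12.02 and 11.78 in Rev-/- RNA, against 11.81, 11.93 and 11.65 in WT RNA, with a log2 fold change of 0.028 (SE 0.111), or 0.10 without Rev-/- 1. Mrps11, whose promoter overlaps that of Mrpl46, had 8.65, 8.79 and 8.88 in Rev-/- RNA, against 8.81, 8.78 and 8.65 in WT RNA. Mrpl46 had 9.91, 10.17 and 9.84 in Rev-/- RNA, against 9.97, 10.05 and 10.13 in WT RNA. The groups overlapped in both genes of the pair, whose log2 fold changes were 0.027 and -0.076, or 0.089 and -0.043 without Rev-/- 1. Mrps30, a large subunit protein despite its symbol, had 10.19, 10.32 and 10.36 in Rev-/- RNA, against 10.26, 10.46 and 10.47 in WT RNA, with a log2 fold change of -0.11 (SE 0.083), or -0.058 without Rev-/- 1.

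The 4 mitochondrial ribosomal proteins listed under other names, Dap3, Ptcd3, Chchd1 and Gadd45gip1, had a score of -0.020 on Rev-/- 1, and whether this differs from the members was not tested. Dap3, a GTP-binding small subunit protein, had log2 intensities of 11.31, 11.09 and 11.09 in Rev-/- RNA, against 10.93, 11.09 and 11.02 in WT RNA. Chchd1 had 11.95, 12.04 and 12.02 in Rev-/- RNA, against 12.08, 12.11 and 12.15 in WT RNA. Neither gene overlapped between labels, Dap3 higher and Chchd1 lower in Rev-/- RNA, against 3.54% and 4.57% of all genes tested. Both were named for their small p in this list. Their log2 fold changes were 0.15 (SE 0.083) and -0.11 (SE 0.059). The lowest Rev-/- and the highest WT value of Dap3 both rounded to 11.09. Without Rev-/- 1 the log2 fold changes were 0.076 for Dap3 and -0.085 for Chchd1.

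Genes that serve the mitochondrial ribosome were read from 4 further lists. At an unadjusted p of at most 0.05, 0 of 12 kept translation factors, 0 of 13 kept mitochondrial tRNA synthetases, 1 of 16 kept assembly factors and 1 of 20 kept genes of mitochondrial DNA expression were lower in Rev-/- RNA (1.94% of all genes tested were), and 0 were higher (1.24% were), counts too small to set these lists apart. The 2 genes of smallest p among the translation factors, Mtif3 and Mtrf1l, had log2 fold changes of -0.098 (SE 0.056) and -0.21 (SE 0.118), or -0.094 and -0.17 without Rev-/- 1. The median log2 fold changes of these lists were -0.066, -0.056, -0.031 and -0.022 in the same order, and -0.0080, -0.047, -0.0020 and -0.0098 without Rev-/- 1. Rpusd4, a pseudouridine synthase that acts on mitochondrial ribosomal RNA, had log2 intensities of 8.13, 8.13 and 7.88 in Rev-/- RNA, against 8.30, 8.36 and 8.39 in WT RNA. Its log2 fold change was -0.30 (SE 0.084, limma adjusted p = 0.997). Tfam, which packages mitochondrial DNA and starts its transcription, had 8.56, 8.53 and 8.50 in Rev-/- RNA, against 8.69, 8.72 and 8.76 in WT RNA. Its log2 fold change was -0.19 (SE 0.057, limma adjusted p = 0.997). In both genes all Rev-/- values lay below all WT values, and the log2 fold changes without Rev-/- 1 were -0.35 and -0.21. Both were named for their small p. Such a separation was found in 1 of 16 kept assembly factors and 1 of 20 kept genes of mitochondrial DNA expression, against 4.57% of all genes tested. Over the alternative settings the log2 fold changes ran from -0.51 to -0.22 for Rpusd4 and from -0.42 to -0.080 for Tfam.

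Nuclear genes of the respiratory chain shared the low values on Rev-/- 1. Their score was -0.24, 0.071 and 0.060 on the Rev-/- arrays, against 0.047, 0.092 and -0.029 on the WT arrays. Rev-/- 1 was the lowest array for 59 of 68 kept genes (86.8%), and their median log2 fold change was -0.072, or 0.027 without that array. Uqcrq, a subunit of complex III, had log2 intensities of 8.20, 8.33 and 8.43 in Rev-/- RNA, against 8.53, 8.64 and 8.52 in WT RNA. Its log2 fold change was -0.24 (SE 0.078, limma adjusted p = 0.997), and that of Ndufa2, a subunit of complex I, was -0.18 (SE 0.077). Both remained negative without Rev-/- 1, at -0.18 for Uqcrq and -0.13 for Ndufa2. Cytosolic ribosomal proteins did not share it. Their score was 0.11, -0.028 and 0.026 on the Rev-/- arrays, against -0.054, -0.11 and 0.066 on the WT arrays. Rev-/- 1 was the lowest array for 3 of 48 kept genes (6.25%) and the highest for 18 (37.5%). Their median log2 fold change was 0.068, with 40 genes higher and 8 lower in Rev-/- RNA in the quantile-normalized values, and it was 0.046 without Rev-/- 1. Rpl28 and Rps24 had log2 fold changes of 0.24 (SE 0.083) and -0.20 (SE 0.073), and that of Rpl28 was -0.045 with no normalization. The score of the muscle fibre genes (13 of 13 kept) was -0.025 on Rev-/- 1, within the range of its other arrays (-0.039 to 0.076). Of these genes, 4 (30.8%) were lowest there, Ckm among them, against 25.1% of all genes tested. The score of the myoblast markers (6 of 8 kept) was -0.13 on Rev-/- 1, below its other arrays (-0.060 to 0.094), with 4 of the 6 genes lowest there, and its part in the members' values was not tested.

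**Figure D4:**
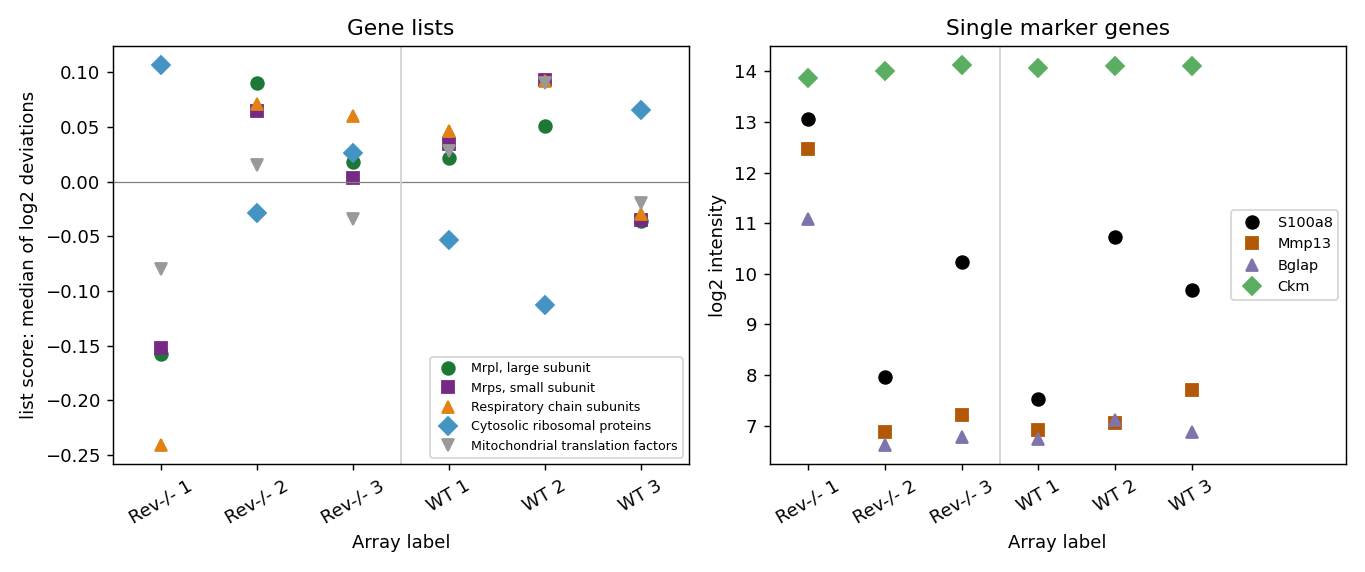
Left, the score of each gene list on each array (median log2 deviation, vertical axis), with the Rev-/- arrays left of the line and WT right of it. Right, log2 intensities of single marker genes. On Rev-/- 1 both subunits lie near -0.15, the respiratory chain genes at -0.24 and the cytosolic ribosomal proteins at 0.11. On the same array S100a8, Mmp13 and Bglap are at their highest and Ckm is at its lowest.

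The size of the family's difference, and the sign for 20 members, depended on the scaling. With the deposited values left without normalization, or with the array medians aligned, all 72 members were lower in Rev-/- RNA, with medians of -0.32 and -0.28, where 90.9% and 80.8% of all genes tested were lower. The median over all genes tested was then -0.15 and -0.11. Aligning medians shifts all genes of an array alike, so the members' median minus that of all genes was necessarily the same, -0.17, in both cases. This difference was -0.044 in the quantile-normalized values of all 6 arrays, -0.038 after cyclic loess, and 0.040 without Rev-/- 1. At an unadjusted p of at most 0.05, 46 members passed with no normalization and 34 with array medians aligned, where 23.1% and 19.3% of all genes tested passed. No member was called under any of these settings.

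**Figure D5:**
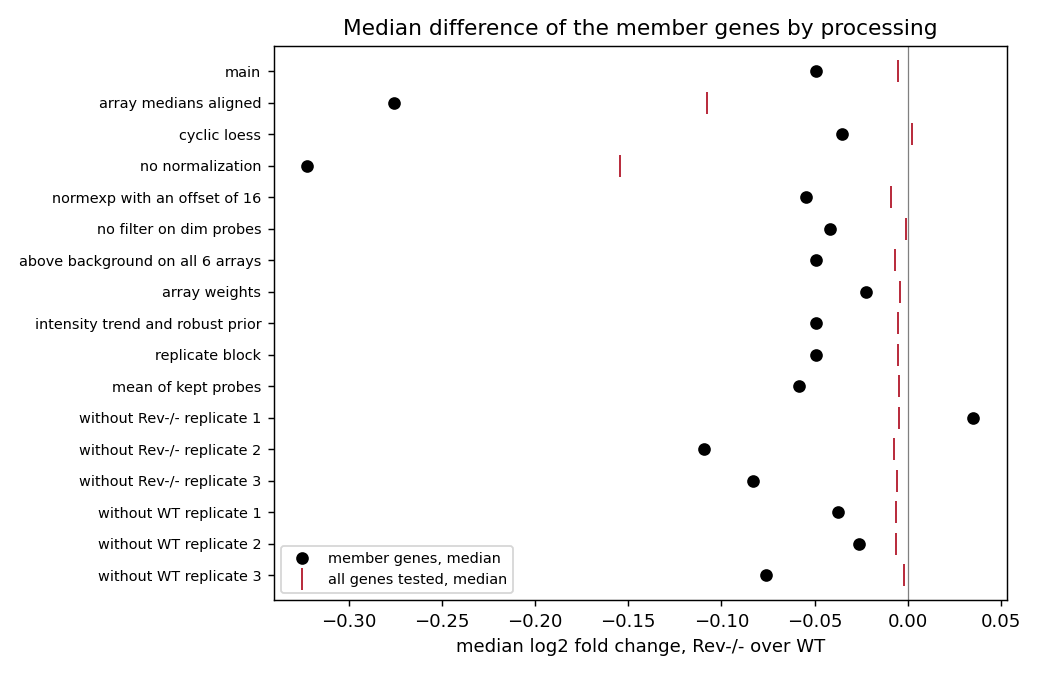
Median log2 fold change (Rev-/- over WT, horizontal axis) of the member genes under each processing. Black points are the members and red ticks all genes tested. The points lie at -0.28 and -0.32 for medians aligned and no normalization, and at 0.035 without Rev-/- replicate 1.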

How the data were processed

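RNA labelled as primary myoblasts was hybridised to 6 arrays, 3 Rev-/- and 3 WT. The authors deposited linear intensity values in the series matrix, read with BeadStudio or GenomeStudio, then background-subtracted and normalized in lumi. They name limma for their tests. The tools' versions were not given in the sources used. The deposited columns did not share 1 distribution, as quantile-normalized columns would. A second table was not used, since its 12 columns of per-array values are not paired with samples by name.

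The intensities were quantile-normalized over 45281 probes and log2-transformed, and no background step was added. Background per array was the peak of the density with the dimmer probes mirrored, cut at the 95th percentile, and probes above it on at least 3 arrays were kept (21421, of which 18133 had 1 symbol). Of all probes, 34885 had 1 gene symbol in the platform annotation, 18 had several and 10378 had none. All 76 members matched the current RefSeq gene table. Differences (Rev-/- minus WT) were fitted with limma 3.58.1 in R 4.3.3 (lmFit, eBayes), with Benjamini-Hochberg adjustment over the kept probes with 1 symbol, and a call needed both an adjusted p no larger than 0.05 and a change of 1.5-fold or more. The fit was tested on simulated data with 200 of 11624 genes changed. Of the changed genes, 37% were called at a 1.5-fold change and 93% at a 2-fold change. The simulated noise was independent between genes and held no shift shared by the genes of an array, unlike these data. The number of arrays limits the precision.

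Genes named are the 4 members of each subunit with the smallest p, the 3 with the most positive and the 3 with the most negative change, members whose labels did not overlap, members fixed by role, and 2 genes by p of each other list. Mrpl46, Mrpl53 and Mrpl22 were named for their promoters, and further probes of Mrps7 and Mrpl51 after their values were seen. Mrpl41 and Mrps36, fixed by role, are not used here. The members and lists were chosen with earlier results of these data known. Alternatives changed the normalization, background, filter, weights, prior, probe choice and block, and left out each array.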

Additional observations from a re-analysis of the deposited data

How the results depend on the processing

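No gene and no member was called under any alternative, and the smallest limma adjusted p of any gene over them was 0.076. The members' median log2 fold change, -0.049 in all 6 quantile-normalized arrays, was -0.28 with array medians aligned and -0.32 with no normalization. For the large subunit these values were -0.26 and -0.31, and for the small subunit -0.29 and -0.34. Members at an unadjusted limma p of at most 0.05 numbered 3, against 34 with medians aligned and 46 with no normalization, where 369, 2239 and 2688 of all 11624 genes passed. With each array left out in turn, the median ran from -0.11 to 0.035 over all members, from -0.086 to 0.042 over the large subunit and from -0.13 to -0.030 over the small subunit. It was positive over all members and over the large subunit only without Rev-/- 1. The other alternatives kept the sign of these medians, and array weights gave -0.022 over all members, -0.0072 over the large and -0.096 over the small subunit. With the replicate number as a block the median of the members was -0.049 and 2 members passed the unadjusted threshold. Arrays of the same number had correlations of deviations of -0.17, 0.12 and 0.052. Arrays of different numbers were not compared in this way, so whether the numbers pair the samples was not settled.

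All 20 members that were higher turned lower with medians aligned and with no normalization. Among the genes named by rule, those that did so with medians aligned were Dap3 (-0.13), Mrps9 (-0.13), Mrps34 (-0.21), Mrpl44 (-0.21), Mrpl34 (-0.080), Mrpl3 (-0.075), Mrps11 (-0.17) and Mrpl17 (-0.15). With no normalization the same genes had -0.17, -0.18, -0.26, -0.26, -0.13, -0.12, -0.22 and -0.20 in that order, and Rpl28 had -0.045. With the mean of kept probes Dap3 had -0.035, Mtif3 0.018 and Mrps11 -0.0069, and with array weights Mrpl11 had 0.024. Without Rev-/- 1, 22 members changed sign. With each array left out, the log2 fold changes of the genes named by rule that changed sign ran from -0.12 to 0.10 for Mrpl11, -0.34 to 0.020 for Mrpl21, -0.087 to 0.15 for Mrpl44, -0.028 to 0.090 for Mrps11, -0.13 to 0.026 for Mrps12, -0.13 to 0.053 for Mrps18a, -0.14 to 0.080 for Mrps28 and -0.068 to 0.10 for Mrps34. The cause of these changes was not tested.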
